A study of Mus musculus with 3 samples.

Results

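The CpG-rich promoters of 10 germline genes (Dazl, Ddx4, Mael, Asz1, Mov10l1, Sycp1, Sycp3, Hormad1, Slc25a31 and Dpep3) were examined for 5-methylcytosine (5mC) and 5-hydroxymethylcytosine (5hmC) in mouse embryonic stem cells (mESCs). The genes were chosen by name from the 22367 protein-coding genes of the annotation. They were taken as genes known to be kept off outside germ cells by promoter methylation, with earlier results of these data known. Genomic DNA of E14 cells, an established mouse ES cell line grown with serum, LIF and the inhibitors PD0325901 and CHIR99021, was measured by 3 methods with 1 library each. TAPSβ reads 5mC, CAPS reads 5hmC, and PS reads 5-formylcytosine and 5-carboxylcytosine (5fC and 5caC), each as a C-to-T change. There were no replicates and no other genotype or treatment. Intervals of levels are exact 95% binomial intervals, and those of ratios and shares were formed on the log scale. The intervals address counting error only. They are too narrow even for that, because a read is counted at each CpG that it covers. Every test either compares regions within a library or sets reads against a fixed background rate. Expression was not measured, and the data therefore bear on the methylation of these promoters and not on whether the genes were silent.

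Germ cells need proteins that other cells do not use, among them the meiotic chromosome axis and the piRNA machinery that holds transposons in check. Many of these genes have a CpG island at the start, which is unusual in being methylated in somatic cells, since most CpG islands stay free of methylation. TET enzymes oxidise 5mC to 5hmC and then to 5fC and 5caC, and embryonic stem cells express such enzymes.

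A promoter was taken as the 500 bp on each side of the annotated gene start in mm9, and a level as the modified reads over all reads, summed over its CpG cytosines on both strands. The 10 promoters held 38 (Asz1) to 77 (Ddx4) CpGs, 559 in all. The 250 bp before the start are shown for the gene with the lowest TAPSβ level in its promoter (Ddx4, chr13:113442519-113442768, minus strand), for the gene with the highest CAPS level (Hormad1, chr3:95363349-95363598, plus strand) and for the gene with the highest TAPSβ level (Dpep3, chr8:108503320-108503569, minus strand). They were read from the NCBIM37 reference, which is mm9, 5′ to 3′ along the gene, and CpGs with a TAPSβ level of 50% or more are in capitals.
Ddx4: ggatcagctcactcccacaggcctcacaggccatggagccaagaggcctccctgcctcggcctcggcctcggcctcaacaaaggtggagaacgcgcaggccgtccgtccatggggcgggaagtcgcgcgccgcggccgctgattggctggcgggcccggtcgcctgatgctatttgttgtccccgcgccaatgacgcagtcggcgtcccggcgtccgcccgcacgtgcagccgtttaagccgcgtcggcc
Hormad1: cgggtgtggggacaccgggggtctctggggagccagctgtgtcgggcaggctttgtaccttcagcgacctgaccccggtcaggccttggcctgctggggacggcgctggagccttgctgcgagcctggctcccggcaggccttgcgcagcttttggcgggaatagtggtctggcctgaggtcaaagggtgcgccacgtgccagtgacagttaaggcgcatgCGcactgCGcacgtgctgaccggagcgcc
Dpep3: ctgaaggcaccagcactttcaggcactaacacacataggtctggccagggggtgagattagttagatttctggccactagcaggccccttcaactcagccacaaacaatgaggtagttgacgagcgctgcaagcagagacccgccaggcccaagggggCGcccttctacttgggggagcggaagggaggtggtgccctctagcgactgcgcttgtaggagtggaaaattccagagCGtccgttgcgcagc
None of the 31 CpGs shown for Ddx4 reached 50%, against 2 of 19 for Hormad1 and 2 of 10 for Dpep3.

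Among the germ cell RNA-binding genes, Dazl (chr17:50418719-50432924, minus strand), which encodes a translational regulator of germ cells, had a promoter TAPSβ level of 37.1% (34.3 to 39.9%, 438 of 1182 reads). Ddx4 (chr13:113388541-113442518, minus strand), the germ cell RNA helicase known as Vasa, had 12.1% (10.4 to 14.04%, 158 of 1301 reads). The Ddx4 level was the lowest of the 10, and its interval overlapped that of no other gene. It was 5.59% with 250 bp on each side of the start and 22.3% with 1000 bp, where Dazl, at 20.3%, was lower. Dazl was also lower, at 6.79%, with its promoter centred on its other coding start.

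Of the piRNA pathway genes, Mael (chr1:168131516-168168875, minus strand), a germ granule protein, had a TAPSβ level of 27.1% (24.7 to 29.7%, 349 of 1286 reads) in its promoter. Asz1 (chr6:18000964-18059061, minus strand), whose protein sits in germ cell granules, had 49.0% (45.2 to 52.8%, 339 of 692 reads). Mov10l1 (chr15:88813339-88885582, plus strand), the RNA helicase that starts piRNA processing, had 37.6% (34.6 to 40.7%, 373 of 992 reads). The Mov10l1 and Dazl intervals overlapped almost entirely, while Asz1 lay above both.

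Of the meiotic chromosome genes, Sycp1 (chr3:102622422-102740023, minus strand), which encodes the transverse filament of the synaptonemal complex, had 21.7% (19.2 to 24.3%, 219 of 1011 reads). Sycp3 (chr10:87922314-87935981, plus strand), which encodes its lateral element, had 22.8% (20.6 to 25.2%, 306 of 1340 reads). Hormad1 (chr3:95363599-95391593, plus strand), a HORMA domain protein of the unsynapsed axis, had 32.1% (29.2 to 35.1%, 324 of 1009 reads). The Sycp1 and Sycp3 intervals overlapped, and Hormad1 was above both.

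Of the testis genes, Slc25a31 (chr3:40512777-40529515, plus strand), the ADP/ATP carrier of sperm, had 30.02% (27.2 to 32.9%, 308 of 1026 reads). Dpep3 (chr8:108497420-108503319, minus strand), a membrane dipeptidase of the testis, had 61.1% (57.6 to 64.5%, 480 of 786 reads), the highest of the 10. Dpep3 was thus the single gene called methylated at a level of 50% or more, which 26.5% of all protein-coding promoters and 0.185% of promoters with at least 38 CpGs reached. At 30% or more there were 6 genes, against 31.8% of all promoters and 0.546% of those with at least 38 CpGs. At 20% or more there were 9, all but Ddx4, against 34.1% and 0.95%, and at 70% or more there were 0, against 10.9% and 0.0528%. The call at 50% depends on the setting for both genes near it, since Dpep3 had 48.7% within 250 bp of the start and Asz1 had 51.8% when cytosines with at least 10 reads alone were used. The 10 promoters thus ran from lightly to mostly methylated.

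**Figure D1:**
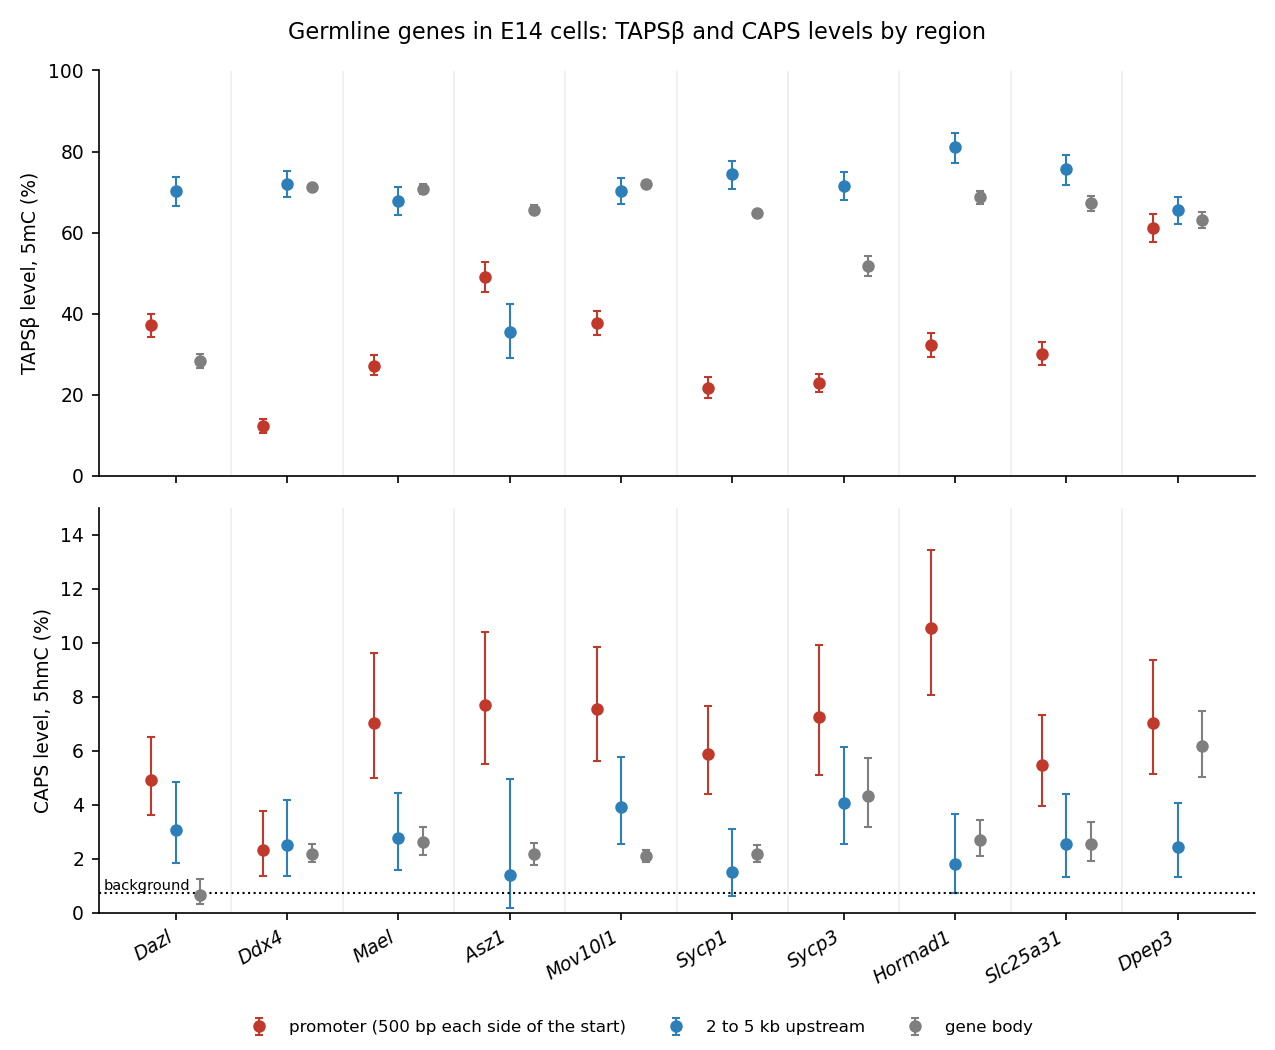
TAPSβ level (upper panel, %) and CAPS level (lower panel, %) of the 10 germline genes in the promoter, in the region 2 to 5 kb upstream and in the gene body. Points are pooled levels of 1 library, bars are exact 95% binomial intervals, and the dotted line is the CAPS background rate; in the upper panel the promoter lies below the upstream region in all genes but Asz1, and in the lower panel it lies above it in all genes but Ddx4.

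Promoters with as many CpGs were nearly free of methylation elsewhere in the genome. For each gene, the protein-coding promoters with a CpG number within 10% of its own (1018 to 2551 promoters) had a median TAPSβ level between 0.429% (for Ddx4) and 3.78% (for Asz1). The share of these promoters at or above the gene's own level ran from 0.0657% (1 of 1522 promoters, for Dpep3) to 2.36% (24 of 1018, for Asz1). For Dazl it was 0.157% (4 of 2551) and for Ddx4, despite its low level, 0.216% (5 of 2314). With CpG numbers within 25% the share ran from 0.147% (9 of 6113, for Dazl) to 4.12% (118 of 2864, for Asz1), and that of Dpep3 was 0.600% (23 of 3834) and that of Ddx4 0.512% (30 of 5861). Across all 11335 promoters with at least 38 CpGs the median TAPSβ level was 0.536%, against 31.1% for the 10 germline genes. Promoters of genes that ES cells use had 0.11% (Sox2), 0.00% (Pou5f1, 0 of 1076 reads) and 9.80% (Nanog) in the same library, the last not far below Ddx4 at 12.1%. Of the housekeeping genes Actb had 0.837%, Gapdh 0.443% and Tbp 0.724%. Nanog (18 CpGs), Gapdh (23) and Pou5f1 (30) have fewer CpGs than any of the 10 genes.

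**Figure D2:**
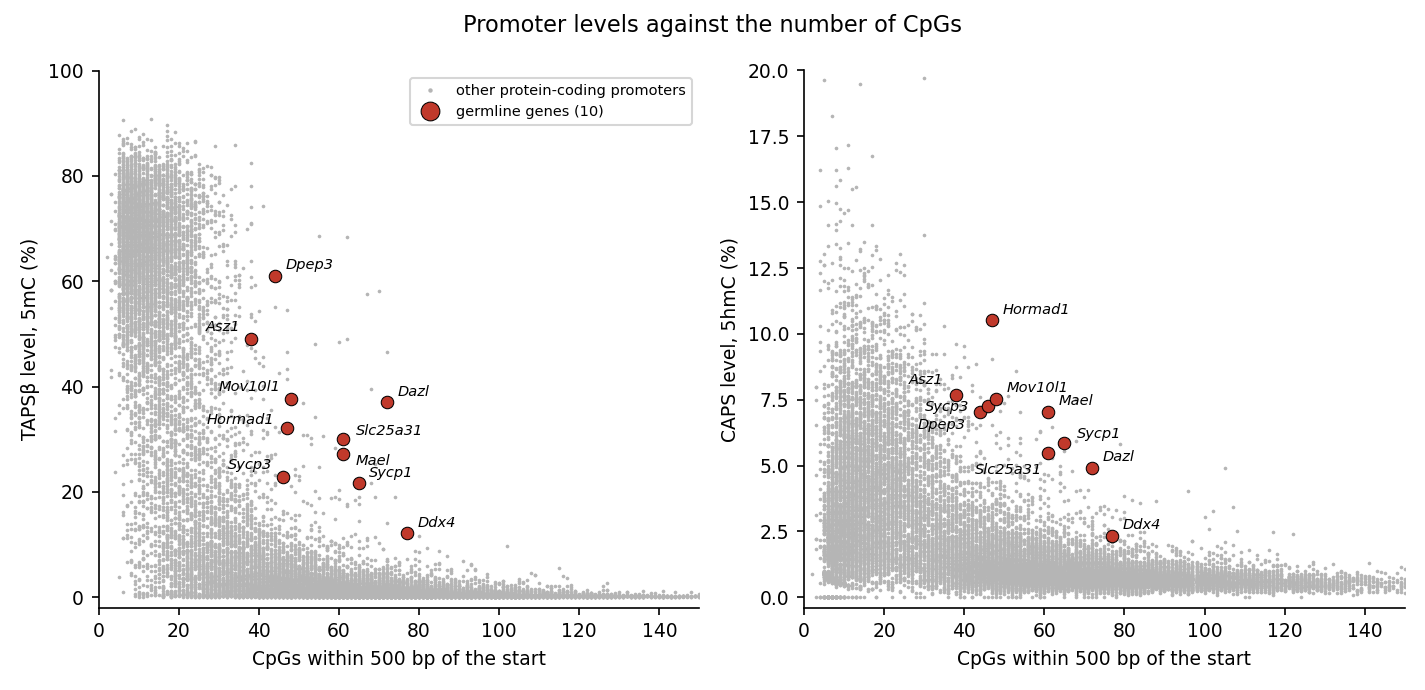
Promoter TAPSβ level (left, %) and CAPS level (right, %) against the number of CpGs within 500 bp of the start, for 19043 protein-coding promoters with at least 100 reads in each library (grey) and the 10 germline genes (red, named). The germline genes lie above the mass of promoters of equal CpG number on both axes; 60 promoters with more CpGs than the axis shows and 5 with a CAPS level above 20% are outside the frame.

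The promoters were compared with the flanking DNA 2 to 5 kb upstream and with the gene body beyond the promoter by Fisher's exact test on the reads (two-sided, Benjamini-Hochberg adjusted over all genes). Upstream, the TAPSβ level of 9 genes was 65.5 to 81.0%, and that of Asz1 was 35.5% (29.1 to 42.3%, 76 of 214 reads). The promoter was lower than upstream in 8 genes, a call made for 76.4% of all genes, with differences of -32.7 points (Mov10l1) to -59.9 points (Ddx4). Asz1 differed in the other direction, with its promoter 13.5 points higher (adjusted p = 0.000687 by Fisher's exact test; promoters called higher made up 9.84% of all genes). Its upstream level rests on 14 cytosines. In the 250 bp bins there with 1 CpG, 0 of 13, 0 of 19, 0 of 25 and 28 of 43 reads were modified. Whether E14 variants lie at these CpGs was not tested, so the reversed direction is uncertain. Against the region 5 to 10 kb upstream, with 59.7%, the Asz1 promoter was lower (adjusted p = 0.000529, Fisher's exact test). Against that farther region the call for Ddx4 was lost, with 12.1% in the promoter and 14.4% at 5 to 10 kb (adjusted p = 0.0628, Fisher's exact test), so that 8 genes were again called lower but not the same 8. Dpep3 was not called, with 61.1% in the promoter and 65.5% upstream (adjusted p = 0.0781, Fisher's exact test). The upstream windows of Mov10l1, Sycp1, Sycp3, Hormad1 and Slc25a31 overlapped a neighbouring gene (Mlc1, Nr1h5, Chpt1, Ctss and Intu, respectively), and the promoter of Sycp3 also overlapped Chpt1.

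Against the gene body the promoter was again lower in 8 genes (77.7% of all genes), not in Dpep3 (63.1% in the body, adjusted p = 0.349 by Fisher's exact test) and not in Dazl. With exons alone as the body, at 69.4%, the Dpep3 promoter was lower as well (adjusted p = 0.000741 by Fisher's exact test). Dazl was the exception, with 28.3% (26.6 to 29.96%, 817 of 2889 reads) in its body and 37.1% in its promoter (adjusted p = 7.44e-08 by Fisher's exact test, a call of promoter above body made for 9.5% of genes). The low body level came from 1 block. From 501 to 1000 bp after the start (chr17:50431924-50432423), 53 CpGs had a TAPSβ level of 0.469% (7 of 1492 reads) and a CAPS level of 0.442% (2 of 452 reads), while the rest of the body had 58.0% TAPSβ (810 of 1397 reads). Within the block lies the start of a shorter coding transcript of Dazl, 707 bp after the gene start. With the promoter centred on that start the TAPSβ level was 6.79% (5.72 to 7.99%), and with exons alone as the body, at 45.6%, the Dazl promoter was the lower of the pair. The partly methylated Dazl promoter thus ran into an unmethylated, CpG-dense block inside the gene. The fall began within the promoter window, with 1 of 24 modified reads at 479 bp after the start.

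**Figure D3:**
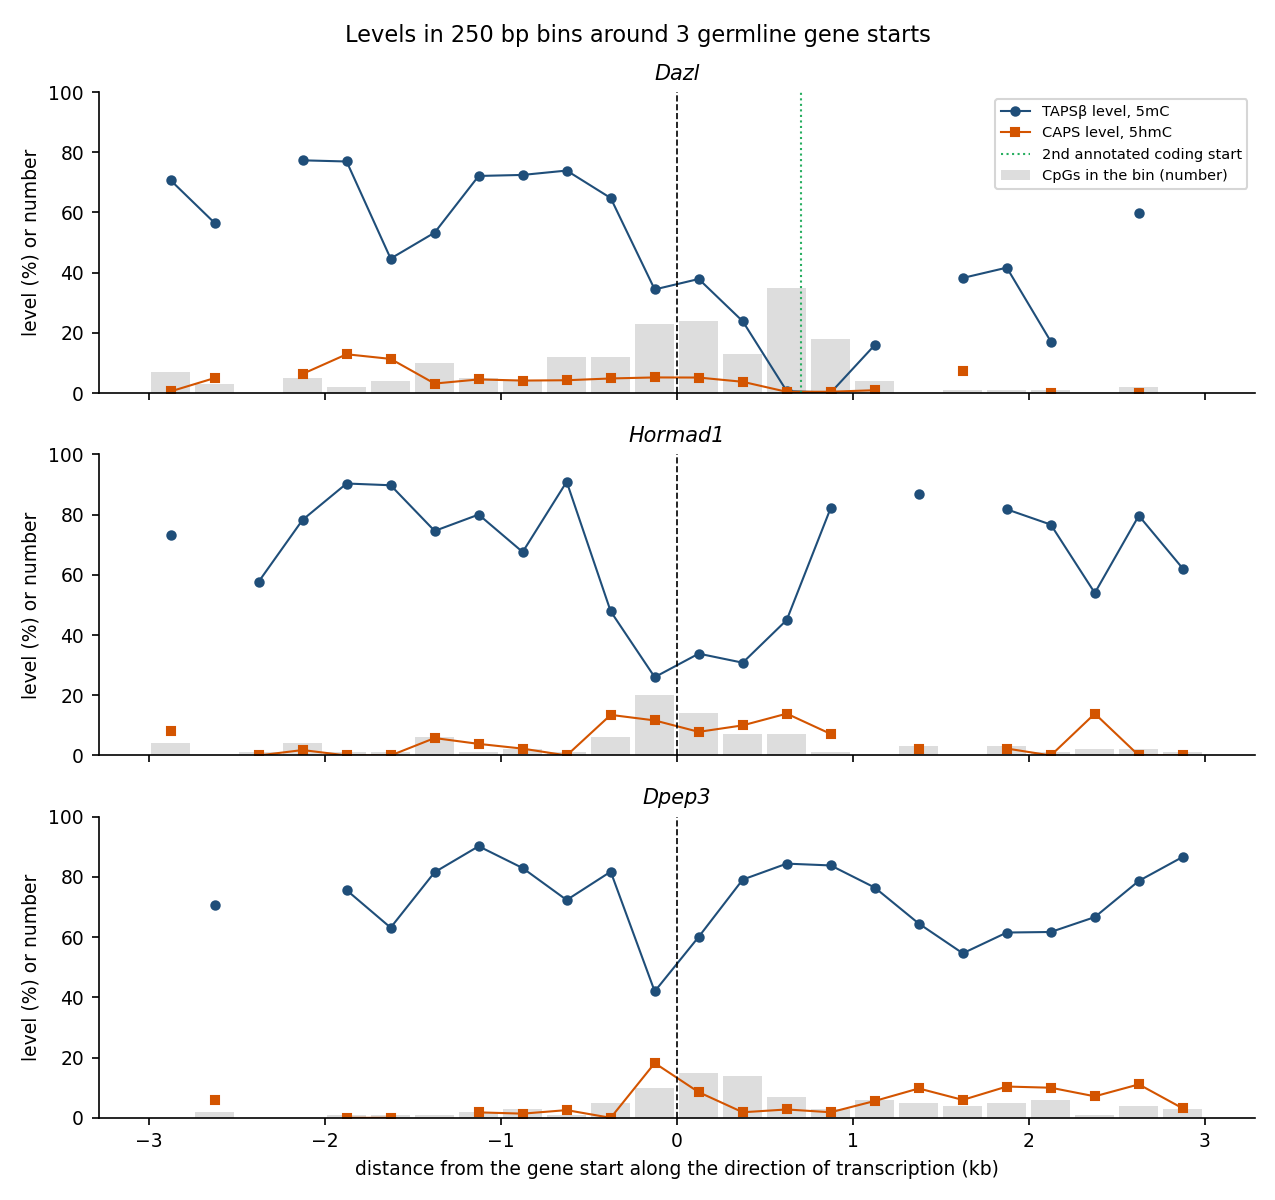
TAPSβ level (blue, %), CAPS level (orange, %) and number of CpGs (grey bars) in 250 bp bins within 3 kb of the start of Dazl, Hormad1 and Dpep3, for bins with at least 20 reads in the library drawn; the dashed line is the gene start and the dotted line the other coding start of Dazl. Dazl falls to a level near 0 in the CpG-dense bins after 500 bp, Hormad1 is lowest just before the start, and in Dpep3 the lowest TAPSβ bin (42.0%) is the one with the highest CAPS level (18.2%).

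Around the start, the summed TAPSβ level of the 10 genes was 70.6% (67.1 to 73.9%) at 750 to 501 bp before the start, 59.9% (57.3 to 62.5%) at 500 to 251 bp and 24.6% (23.2 to 26.1%) in the last 250 bp. It was 25% in the first 250 bp of the gene and 31.2% in the next 250 bp. Beyond that the sum is weighed down by the unmethylated block of Dazl: it was 29% at 500 to 749 bp and 27.1% at 750 to 999 bp, and without Dazl 42.1 and 52.8%. Sycp3 was still at 14.9% at 750 to 999 bp, while Ddx4, Sycp1, Hormad1, Slc25a31 and Dpep3 lay between 77.9 and 90.9% there. In the same bin Mov10l1 had 55.56% and Mael 65.85%, and Asz1 had 0 of 11 reads modified at 1 CpG. From the 250 bp further upstream to the last 250 bp before the start, the level went from 47.1 to 7.02% in Ddx4, from 58.8 to 15.3% in Slc25a31 and from 81.7 to 42.0% in Dpep3.

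**Figure D4:**
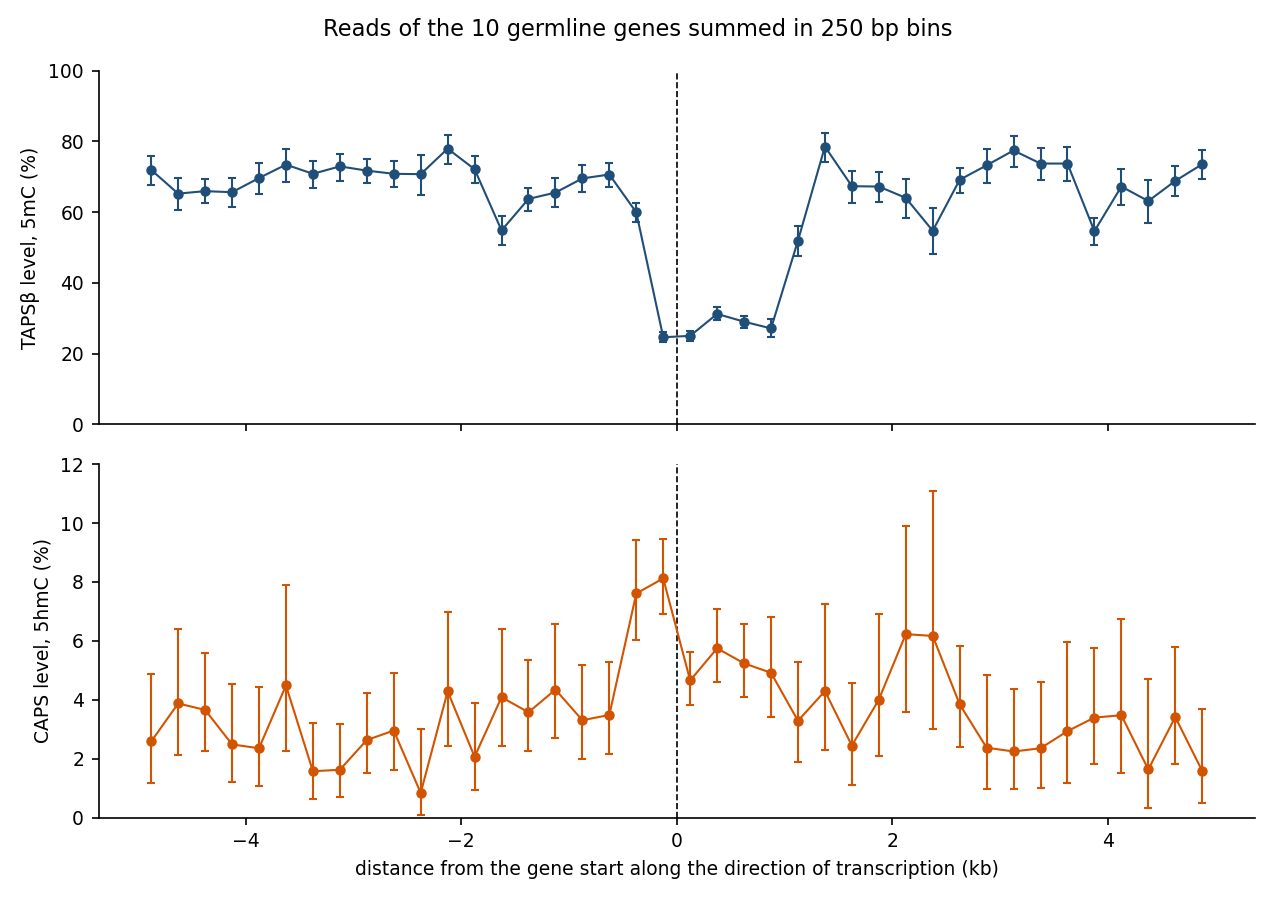
TAPSβ level (upper panel, %) and CAPS level (lower panel, %) of the 10 germline genes by distance from the gene start (kb), with reads summed over the genes in 250 bp bins and exact 95% binomial intervals. TAPSβ falls to 24.6% in the bin before the start, where CAPS is at its highest, 8.12%.

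CAPS gave the germline promoters 5hmC levels that few CpG-rich promoters had. The highest was Hormad1 at 10.5% (8.08 to 13.4%, 57 of 541 reads), but with 250 bp on each side of the start Dpep3, at 12.7%, lay above its 9.94%, and on the minus strand alone Dpep3 had 9.52% and Hormad1 8.85%. Asz1 had 7.69% (5.50 to 10.4%, 38 of 494 reads), Mov10l1 7.54% (5.63 to 9.84%, 49 of 650 reads) and Sycp3 7.25% (5.10 to 9.93%, 35 of 483 reads). Mael at 7.05% (36 of 511 reads), Dpep3 at 7.04% (43 of 611), Sycp1 at 5.88% (50 of 851), Slc25a31 at 5.48% (42 of 767) and Dazl at 4.92% (46 of 935) followed. Ddx4 was the lowest at 2.35% (1.35 to 3.78%, 16 of 682 reads), though Dazl had 1.57% (12 of 763) with its promoter centred on its other coding start. Neighbours in this order had overlapping intervals, and that of Ddx4 overlapped Dazl alone. All 10 exceeded the background rate of 0.0072 by the one-sided exact binomial test, with adjusted p from 0.000227 (Ddx4) to 1.65e-43 (Hormad1), a call made for 39.2% of all promoters and 19.1% of those with at least 38 CpGs. Within 250 bp of the start Ddx4 was no longer called. CAPS depth in these promoters was 4.22 to 7.02 reads per cytosine. With cytosines of at least 10 reads alone, 6 of the 10 had under 100 reads and were not tested. Among these Dpep3 had 1 modified read of 97, Dazl 0 of 73, Ddx4 0 of 30, Asz1 4 of 85 and Slc25a31 3 of 72. Mael had 0 reads left. Mov10l1, Sycp1, Sycp3 and Hormad1 were still called, at 8.54, 4.68, 8.07 and 9.84%.

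Promoters matched on CpG number had median CAPS levels of 0.779 to 1.68%, near the background. None of the 1588 promoters matched to Hormad1 and none of the 2520 matched to Mael reached the CAPS level of that gene, and the share was at most 1.69% (39 of 2314, for Ddx4). A CAPS level of 5% or more was found in 8 of the 10 genes and in 0.838% of the promoters with at least 38 CpGs. It was found in 11.7% of all protein-coding promoters and in 32.4% of those with a TAPSβ level of 20% or more. Compared instead with promoters whose TAPSβ level was within 5 points of the gene's own, mostly poor in CpGs, the CAPS levels stood out less. The share of such promoters at or above the gene was 8.45% for Hormad1 and 11.6% for Dpep3, and it ran from 22.9 to 77.5% for the other 8. Promoters matched on both the TAPSβ level and, within 25%, the CpG number were few (2 to 65 per gene). Among them 0 of 29 reached the CAPS level of Hormad1, 1 of 19 that of Dpep3, 6 of 65 that of Sycp3 and 2 of 17 that of Mov10l1, while 27 of 57 reached that of Ddx4 and 7 of 11 that of Slc25a31. Whether the 5hmC of these promoters follows from their 5mC was not tested.

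The CAPS level 2 to 5 kb upstream was 1.40 to 4.07%, and the promoter was higher in 7 genes by Fisher's exact test, a call made for 6.44% of all genes and for 0.836% of those with at least 38 CpGs. In 5 of the 7 (Mael, Mov10l1, Sycp1, Hormad1 and Slc25a31) the TAPSβ level of the promoter was also called lower than upstream, a pair of calls made together for 4.41% of all genes and for 0.702% of those with at least 38 CpGs. Hormad1 had 1.80% upstream and 10.5% in the promoter, a ratio of 5.87 (2.71 to 12.7; adjusted p = 2.59e-07 by Fisher's exact test). Sycp1 had 1.53% and 5.88%, a ratio of 3.85 (1.76 to 8.43), and Dpep3 2.45% and 7.04%, a ratio of 2.88 (1.59 to 5.20). Mael, Mov10l1 and Slc25a31 had ratios of 2.55, 1.92 and 2.16. The ratio of Asz1, 5.50 (1.34 to 22.5), rests on 2 modified reads of 143 upstream.

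The other 3 genes were not called. Sycp3 had 7.25% against 4.07% (adjusted p = 0.0716), Dazl 4.92% against 3.09% (adjusted p = 0.149) and Ddx4 2.35% against 2.51% (adjusted p = 0.922), all by Fisher's exact test. For Ddx4 the ratio of 0.933 has an interval of 0.460 to 1.90. With the region 5 to 10 kb upstream in its place, Sycp3 was called as well (7.25% against 3.26%, adjusted p = 0.00293 by Fisher's exact test).

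As a share of 5mC plus 5hmC, the CAPS level made up 10.3% (7.91 to 13.4%) in the Dpep3 promoter and 11.7% (9.03 to 15.1%) in that of Dazl. Shares were higher in Hormad1, at 24.7% (20.2 to 29.9%), Sycp3, at 24.1% (18.5 to 30.7%), Sycp1, at 21.3% (16.8 to 26.7%), and Mael, at 20.6% (15.8 to 26.5%). Ddx4, with little of either base, had 16.2% (10.4 to 24.3%), within the range of the others. Upstream of the same genes the share was 2.01 to 5.38%, and in the gene bodies 2.34 to 8.91%. Promoters with at least 38 CpGs and a TAPSβ level of 20% or more, of which there were 107 including 9 of these genes, had a median share of 14.4%, against 16.7% in those 9 genes. For the 10 genes summed the share was 16.9%, and 20% within 250 bp of the start.

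Summed over the 10 genes, the CAPS level was 3.49% (2.18 to 5.29%) at 750 to 501 bp before the start, 7.61% (6.03 to 9.44%) at 500 to 251 bp, 8.12% (6.91 to 9.46%) in the last 250 bp and 4.66% (3.83 to 5.61%) in the first 250 bp of the gene. In the last 250 bp before the start, Dpep3 had 18.2% (24 of 132 reads), against 0.00% (0 of 87) in the 250 bp before that and 1.85% (4 of 216) at 251 to 500 bp after the start. The TAPSβ level of Dpep3 in that window was 42.0%, against 60.1 to 81.7% in the other 3 windows of its promoter. Sycp1 had 11% before the start (19 of 172 reads) and 2.39% after it (9 of 377), and Mael had 10.9% (15 of 137) and 2.42% (6 of 248). Without these 3 genes the sum was 6.52% (5.28 to 7.95%) before the start and 5.16% (4.09 to 6.42%) after it, with overlapping intervals. Dazl (5.21 and 5.17%), Asz1 (9.47 and 8.67%) and Sycp3 (7.41 and 6.67%) had nearly the same level on both sides. Slc25a31 had the opposite order, with 3.66% (6 of 164) before the start and 5.09% (14 of 275) after it.

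Single CpGs within these promoters seldom reached the highest levels. Of 531 CpGs with at least 10 TAPSβ reads on both strands together, 208 had a level under 20%, 199 lay from 20 to under 50%, 108 from 50 to under 80% and 16 at 80% or more. In other promoters with at least 38 CpGs, 98.1% of CpGs were under 20%. Ddx4 gave 61 of its 77 CpGs to the lowest class, and Dpep3 gave none of 37 to it and 10 to the highest. Dazl (37 of 71), Hormad1 (26 of 47) and Slc25a31 (27 of 53) had most of their CpGs from 20 to under 50%.

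The CAPS level was highest at CpGs of intermediate TAPSβ level. It was 4.62% (3.75 to 5.61%) at CpGs under 20%, 8.34% (7.25 to 9.54%) from 20 to under 50%, 6.21% (5.05 to 7.54%) from 50 to under 80% and 1.80% (0.587 to 4.15%) at 80% or more. CpGs of other promoters with at least 38 CpGs had 6.75% and 5.87% in the middle classes, the first below the interval of the germline genes and the other inside it. In the lowest class these other promoters had 0.829% (0.824 to 0.834%), below the interval of the germline genes. That class is wide, and promoters with at least 38 CpGs had a median TAPSβ level of 0.536%, so its CpGs are not compared at equal 5mC. CpGs of 1 promoter share reads and neighbours, so these intervals are too narrow as a guide to other promoters.

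**Figure D5:**
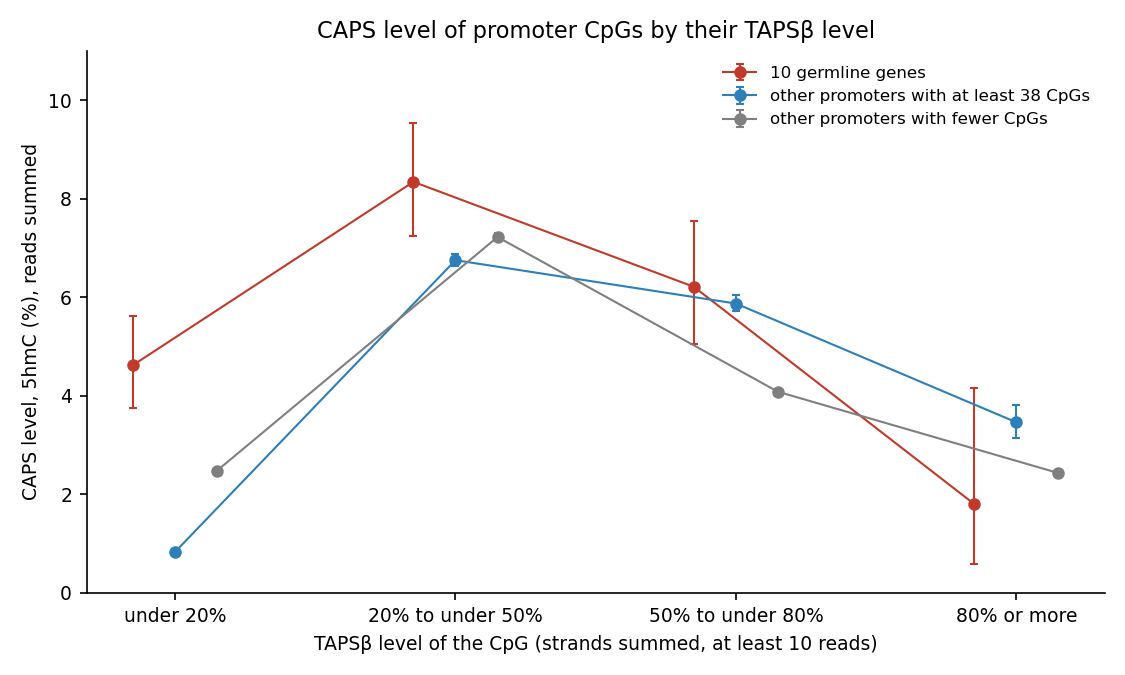
CAPS level (%, reads summed, with exact 95% binomial intervals) of promoter CpGs by their TAPSβ level, for the 10 germline genes (red), other promoters with at least 38 CpGs (blue) and other promoters with fewer CpGs (grey). All 3 sets are highest from 20 to under 50%, and in the lowest class the germline genes stand at 4.62% against 0.829% for the other CpG-rich promoters. CpGs of a class were not matched further on TAPSβ level.

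At single cytosines the CAPS depth limits what can be called. Of 735 promoter cytosines with at least 5 reads, 29 (3.95%) passed the exact binomial test against background, against 1.64% of all cytosines tested, 0.211% of those in promoters with at least 38 CpGs and 4 of 460 in the upstream windows of the same genes. Dpep3 held 7 of them, Hormad1 5 and Mov10l1 5, while Dazl (of 111 tested) and Ddx4 (of 80) held none. The firmest was the plus-strand cytosine of Hormad1 at chr3:95363239, 360 bp before the start, with 4 of 5 reads (28.4 to 99.5%; adjusted p = 1.65e-05 by the exact binomial test). In Dpep3, 5 of the 7 lay 6 to 109 bp before the start, among them chr8:108503391 with 3 of 5 reads. Asz1, Mael and Sycp3 had 3 each, Slc25a31 2 and Sycp1 1. Most calls rest on 2 or 3 modified reads.

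The hexamer CACGTG, the E-box bound by MAX and its partner MGA, occurred in 9 of the 10 promoters (not in Dpep3), 12 times in all, against 18.7% of all promoters and 21.9% of those with at least 38 CpGs. Of 45 other germline genes, 19 held it. The letters GGCGGGAA, a site of the E2F family, occurred in 3 (Ddx4, Hormad1 and Slc25a31), against 8.02 and 11.9%. Both motifs were searched on both strands, CACGTG being its own reverse complement, and a match is not a bound site. Within 250 bp before the start, 7 genes held 9 CACGTG matches. The CpGs inside them had a TAPSβ level of 8.18% (4.92 to 12.6%, 18 of 220 reads), below the 21.1% (19.5 to 22.9%, 471 of 2229 reads) of the other CpGs in the same windows. These sums weigh the genes differently and were not matched on distance from the start. In 12 promoters of these other germline genes the level was 12.5% (9.12 to 16.6%) inside and 18.3% (17.0 to 19.7%) outside. In 28 other promoters with at least 38 CpGs and a TAPSβ level of 10% or more it was 11.5% (9.29 to 14.1%) against 13.3% (12.6 to 14%), with overlapping intervals. In the Hormad1 sequence printed here, the CpGs of both cacgtg letters, 55 and 18 bp before the start, had 0 of 21 and 0 of 19 modified reads, while the CpGs between them, at 35, 29 and 22 bp, had 7 of 22, 11 of 21 and 10 of 19, and the one at 60 bp had 3 of 18. The CACGTG of Ddx4 (0 of 14), of Slc25a31 (0 of 17) and the pair in Sycp3 (0 of 44 and 2 of 40) were also nearly free of 5mC, but so were CpGs beside them in Ddx4 (0 of 13 and 0 of 14 reads at 35 and 31 bp before the start) and in Sycp3 (1 of 43 and 0 of 40 at 56 and 36 bp). The match in Mov10l1 had 1 of 24 reads, and the nearest CpGs on its sides, 181 and 150 bp before the start, had 4 of 27 and 6 of 25. The next CpGs toward the start, at 139 and 130 bp, were also low, with 0 of 22 and 1 of 21. The match nearer the start of Sycp1 had 1 of 12, and its nearest CpGs, at 97 and 75 bp, had 2 of 12 and 6 of 11. The match in Mael, 223 bp before the start, had 14 of 29 reads. Of the matches outside this window, the one in Sycp1, 287 bp before the start, had 15 of 24 reads, the one in Asz1, 201 bp after the start, had 3 of 18, and the one in Dazl, 489 bp after the start, had 0 of 24. CpGs beside the Dazl match, at 479 and 497 bp, were also nearly free of 5mC (1 of 24 and 0 of 23). Over all 12 matches the TAPSβ level was 12.6% (36 of 286 reads), and the other CpGs of those promoters were not summed for comparison. The window of 250 bp was chosen after the levels had been seen. The CAPS levels had overlapping intervals, 6.38% (2.38 to 13.4%) inside and 7.67% (6.20 to 9.35%) outside the matches.

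PS showed no 5fC or 5caC above background in any of the 10 promoters (0 called by the one-sided exact binomial test against 0.0027, with every adjusted p at 1.0; 0.908% of all promoters were called). The highest PS levels were 0.515% (5 of 970 reads) in Sycp3 and 0.341% (5 of 1466) in Dazl. In Sycp1, 0 of 1043 reads were modified, with an interval of up to 0.353%.

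A wider list of germline genes, also chosen with earlier results of these data known, shows how far the pattern extends. Of 46 other genes of meiosis, the piRNA pathway, germ cell RNA or transcription, and testis, 45 were found in the annotation, and 9 had a promoter TAPSβ level of 50% or more, against 26.5% of all promoters. Of the 26 among them with at least 38 CpGs, 1 reached that level, against 0.185% of all such promoters. Over the whole list the median TAPSβ level was 22.5% and the median CAPS level 4.78%, below the 31.1% and 7.04% of the 10. These medians cover 44 genes with enough reads in every library, with 13 to 84 CpGs. The highest were Tdrd7 at 73.4%, Tex101 at 63.9% and Tuba3b at 61.1%, all with 35 CpGs or fewer, and Tuba3b has a near-identical paralogue in Tuba3a, so that reads of the pair may be exchanged. The lowest were Prdm9 at 0.242% (5 of 2068 reads), the methyltransferase that marks meiotic recombination hotspots, Syce2 at 1.37%, of the synaptonemal complex, and Tex14 at 1.97%, of germ cell bridges. The highest CAPS levels were 10.3% in Nobox, 9.06% in Tuba3a and 8.37% in Figla, of which Nobox and Figla encode oocyte transcription factors. Of the 26 with at least 38 CpGs, 11 had 20% or more TAPSβ, against 9 of the 10 genes above, and 24 had a CAPS call. Among all promoters with at least 38 CpGs these shares were 0.95% and 19.1%. Genes of meiosis had the lowest median of the listed roles, 15.0% over 18 genes, and those of germ cell RNA or transcription (46.8% over 7) and of testis (46.6% over 5) had the highest. The roles were not matched on CpG number.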

How the data were processed

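TAPSβ, CAPS and PS were each run on E14 genomic DNA in 1 library. Per the study's methods and the submitters' processing notes, reads were trimmed (Trim Galore 0.3.1), mapped to mm9 with spike-in sequences (BWA 0.7.12), cleared of duplicates (Picard 2.3.0) and of low mapping quality, and called with asTair. For each CpG cytosine and strand the authors deposited raw counts of modified reads and of unmodified ones, and the fraction of modified reads computed from them, which was not used here. A bias at repeats or variants would pass into these values, and it is not stated whether regions left out of later analyses are left out here. The libraries hold 511365019 (TAPSβ), 377288829 (CAPS) and 383591531 (PS) calls at CpGs, with a median of 13, 9 and 9 per listed cytosine.

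Gene starts, bodies and exons came from GENCODE M1 on NCBIM37, which is mm9; every listed position was a CpG cytosine of that reference. Counts were summed per promoter, gene body and 2 to 5 kb upstream (Python 3.11.15, scipy 1.17.1). Intervals are Clopper-Pearson 95% intervals, and those of ratios and shares were formed on the log scale. Calls of 1 read at several CpGs were treated as independent, so p-values are too small and intervals too narrow. CAPS and PS levels were tested one-sided against false-positive rates of 0.0072 and 0.0027 (exact binomial), and regions with Fisher's exact test. Both needed 100 reads, with Benjamini-Hochberg adjustment over all genes and an adjusted p under 0.05. Calling was tested on simulated counts drawn as independent, so that check does not cover the effect of shared reads.

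The genes and lists were chosen with earlier results of these data known. Of the wider list, the text names the 3 highest and the 3 lowest by TAPSβ and the 3 highest by CAPS. The CpGs inside CACGTG, the Dazl block and the TAPSβ classes were compared after the levels had been seen. Tdrd5, the 46th gene of the wider list, was not analysed here.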

Additional observations from a re-analysis of the deposited data

How the results depend on the processing

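Counts over the 10 genes were mostly stable. Of 59 recomputed values, 47 stayed within 1.5 times the reported count or inside the interval of the reported share. The number of promoters at 50% TAPSβ or more was 1, and became 2 with cytosines of at least 10 reads or with 1000 bp on each side of the start, 0 with 250 bp or a threshold of 70%, and 6 at a threshold of 30%. The same count in the wider germline list was 9, and 14 with 1000 bp. CAPS was called in 10 promoters, and in 4 with cytosines of at least 10 reads, since 6 then had under 100 reads. The CAPS levels of Dazl, Ddx4, Asz1 and Dpep3 also fell below the intervals they had with all cytosines. That of Slc25a31 (4.17%) stayed inside, and Mael had 0 reads left. The summed CAPS share of 16.9% became 20% with 250 bp, 14.6% with 1000 bp and 18.5% with the transcript start that has the most CpGs; that start moved Dazl by 707 bp and the others by 4 bp or less. Corrected for background and conversion the share was 17.8%. Cytosines called in CAPS numbered 29, and 5 with at least 10 reads and 50 with both strands summed. The sums around the start without Dazl, and without Dpep3, Mael and Sycp1, were added after the data had been seen. Averaging single cytosines gives no read count, so no test was run there.

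Of 100 single-gene TAPSβ values 70 stayed inside the reported interval, and of 110 CAPS values 98. Leaving out variant-like or high-coverage cytosines changed no promoter level of the 10 genes. Variant-like meant at least 20% modified PS reads, so a variant that reads as unmodified would stay in. The start with the most CpGs was unmoved in most of the 10 genes. Such values could only stay inside, so these tallies, and the 47 of 59 above, overstate the stability. Of 10 shares of promoters matched on CpG number, 6 left their interval when the match was widened to 25%, all upwards. On the plus and minus strands alone, TAPSβ of Hormad1 was 36.2% and 26.7%, CAPS of Sycp1 was 7.82% and 3.29%, and CAPS of Dpep3 was 5.03% and 9.52%; the cause was not tested. No paired analysis was possible because each method has 1 library. With 4.22 to 7.02 CAPS reads per cytosine, single cytosines and 250 bp windows have wide intervals.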

Other observations

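The gene bodies beyond the promoters were also read. Dpep3 had the highest body CAPS level of the 10 genes, at 6.17% (5.04 to 7.47%, 98 of 1588 reads), close to the 7.04% of its promoter, with 5.71% in exons and 6.50% in introns. Its body TAPSβ level, 63.1%, was in the range of the others. Sycp3 followed with a body CAPS level of 4.33% (3.17 to 5.75%, 45 of 1040 reads), made up of 1.64% in exons (2 of 122 reads) and 4.68% in introns. The other 7 genes lay between 2.10% (Mov10l1) and 2.71% (Hormad1), and Dazl had 0.678% (10 of 1474 reads), at the background rate. In TAPSβ, exons were higher than introns in Sycp3 (64.0 against 50.6%), Asz1 (74.7 against 64.6%) and Dpep3 (69.4 against 59.5%), while those of Ddx4 (65.5 against 71.8%) and Sycp1 (58.0 against 65.2%) were lower. In Dazl they were 45.6 against 23.2%, and its introns take in most of the unmethylated block; without the block they were at 53.5% (513 of 959 reads). These differences were not tested.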
